A study of Mus musculus with 6 samples.

Results

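The genes described here are 41 members of the lysosomal system, 15 of them luminal hydrolases, 4 soluble cofactors, 7 membrane proteins and 15 subunits of the vacuolar H+-ATPase (V-ATPase). They were taken by symbol from a list of lysosome genes, and all 41 were found among the 31054 features of the deposited matrix. The pump subunits comprise 5 of the membrane sector V0, 8 of the catalytic sector V1 and 2 accessory proteins.

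Lysosomes break down proteins, sugars and lipids with hydrolases that work at acid pH, and the V-ATPase supplies the acid by using ATP in V1 to drive protons through V0. In macrophages this system digests engulfed material inside the cell. Osteoclasts, the multinucleated cells of the same lineage that resorb bone, also place the pump in the membrane facing the bone and release cathepsin K into the sealed space beneath them.

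The study profiled single cells by droplet 3′ RNA sequencing in 6 mouse samples of 3 groups with 2 samples each. Embryos of the first group carried Cx3cr1CreER; R26tdTomato and their mothers received 4-hydroxytamoxifen at E9.5. Those of the second carried Csf1r-Mer-iCre-Mer; Csf1r-EGFP; R26tdTomato, with the injection at E8.5. Both were cells of the macrophage and monocyte lineage taken at E14.5 from whole bodies, and the third group was total bone marrow of wildtype C57BL/6 mice aged 2 months. CreER and Mer-iCre-Mer are recombinases that 4-hydroxytamoxifen switches on, so that the tdTomato reporter marks cells in which the Cx3cr1 or the Csf1r driver was active at that time, and the R26 reporter is shared by both embryonic groups. A suffix from 1 to 4 on each barcode names no labelled sample. The cells could therefore not be tied to the 6 samples, and no comparison between the 3 groups was made. The 4 suffixes are called libraries below, which genotype or age each holds was not decided, and no p-value is given anywhere.

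After removal of 4461 barcodes, 34587 cells were kept, between 7063 and 11959 in each library, with a median of 13077 to 14956.5 unique molecules (UMIs) per cell. Of them, 1151 share their barcode sequence with a kept cell of another library. Cells were put into classes by UMIs of marker genes that are not among the 41. Osteoclast-gated cells had at least 3 UMIs of Ctsk and at least 3 of Acp5, and macrophage-gated cells at least 3 of Mrc1 and Lyve1 together and no earlier macrophage-family gate. There were 66 osteoclast-gated cells, with 14, 9, 16 and 27 in libraries 1 to 4, and 7545 macrophage-gated cells. The microglia gate on P2ry12, Sall1 and Tmem119 was broad, since 3180 of the 5585 cells that passed it also passed the macrophage gate. Kupffer-gated cells were taken by Cd5l, Timd4 and Clec4f, monocyte-gated cells by Ly6c2 and Ccr2, and 10 further classes by genes of their own. Levels are in CPM, the UMIs of a gene in a class scaled so that all UMIs of the class give the same total, and the spread over libraries is given beside them. Intervals of sums are exact Poisson 95% intervals and those of ratios exact conditional ones. Both cover counting error only, and cells vary by more.

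The osteoclast label was checked on 7 genes outside the gate, and all 7 were higher than in other cells. Mmp9, a matrix protease of osteoclasts, stood at 2180 CPM against 4.65 in macrophage-gated cells, and the fusion genes Dcstamp and Ocstamp at 199 and 177 CPM against 0.177 and 0.511. Calcr, Oscar and Itgb3 were low, on 1, 17 and 22 UMIs. RNA of macrophage markers was present as well. In osteoclast-gated cells of libraries 1 to 4 the summed level of 7 macrophage markers was 643, 2798, 1406 and 562 CPM, and none of the 7 was at 0. In macrophage-gated cells it was 14045 to 15622 CPM. Csf1r, which is among the 7, gave 286, 478, 397 and 376 CPM of the osteoclast-gated sums. Whether that Csf1r came from macrophages was not tested. Of 4 mesenchymal markers, Pdgfra was at 0 and the summed level ran from 4.70 CPM in library 3 to 281 in library 1. Of 6 microglia markers, Siglech was at 0 and the sum ran from 218 to 739 CPM. Library 2, with 9 cells, stood apart with the most RNA of macrophage markers, and 15 of the 66 cells also passed another macrophage-family gate. The part of this RNA in the values below was not tested. Osteoclast-gated cells were also deeper, with a median of 26774 UMIs against 12713.

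Promoters of the members are shown for the letters that bind the MITF and TFEB family, factors that switch on many lysosome genes. RefSeq promoters on GRCm38.p6, 250 bases before to 50 after a start site, were found for 34 of the 41 members. The 6 letters CACGTG stood in the promoters of 11 of these 34 members (32.4%) on either strand, a sequence that reads the same on both. They stood in 8.09% of all 27025 genes and in 7.15% of all 32851 promoters. The longer TCACGTGA, which contains CACGTG and also reads the same on both strands, was found in 5 members (14.7%) and in 1.12% of all genes. A related M-box, TCACATGA or TCATGTGA on the other strand, was found in Atp6v0c, Ctss, Grn and Tpp1 and in 1.15% of all genes. No member held the 10-letter CLEAR element in this window, and 0.370% of all genes did. These matches describe letters and no binding. The promoters with TCACGTGA follow on the strand of the gene, up to 30 bases after the start site, with the match in capitals.

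Atp6v0d1 (chr8:105566035-105566314, minus strand): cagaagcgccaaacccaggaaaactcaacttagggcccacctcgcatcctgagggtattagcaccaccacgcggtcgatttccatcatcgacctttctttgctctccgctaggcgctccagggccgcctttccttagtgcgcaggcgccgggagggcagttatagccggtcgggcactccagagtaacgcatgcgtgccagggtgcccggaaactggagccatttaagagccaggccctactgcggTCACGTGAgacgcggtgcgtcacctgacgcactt
Atp6v0e (chr17:26676146-26676425, plus strand): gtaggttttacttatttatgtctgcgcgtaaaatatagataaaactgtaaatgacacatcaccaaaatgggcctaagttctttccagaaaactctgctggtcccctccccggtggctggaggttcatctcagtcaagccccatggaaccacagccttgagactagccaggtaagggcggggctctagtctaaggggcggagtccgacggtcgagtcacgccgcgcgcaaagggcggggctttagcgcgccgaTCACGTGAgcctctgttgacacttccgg
Atp6v1a (chr16:44139230-44139509, minus strand): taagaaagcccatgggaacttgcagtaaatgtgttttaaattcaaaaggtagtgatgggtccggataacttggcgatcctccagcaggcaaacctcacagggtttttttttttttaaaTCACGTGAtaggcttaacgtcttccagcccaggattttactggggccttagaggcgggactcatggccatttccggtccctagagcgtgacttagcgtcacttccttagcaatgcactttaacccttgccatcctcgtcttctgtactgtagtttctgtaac
Ctsa (chr2:164833523-164833802, plus strand): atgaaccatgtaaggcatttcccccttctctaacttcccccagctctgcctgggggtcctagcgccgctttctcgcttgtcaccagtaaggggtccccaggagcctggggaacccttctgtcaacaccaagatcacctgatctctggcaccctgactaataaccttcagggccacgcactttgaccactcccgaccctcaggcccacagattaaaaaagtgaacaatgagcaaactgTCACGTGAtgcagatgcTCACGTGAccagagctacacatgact
Ctsd (chr7:142387798-142388077, minus strand): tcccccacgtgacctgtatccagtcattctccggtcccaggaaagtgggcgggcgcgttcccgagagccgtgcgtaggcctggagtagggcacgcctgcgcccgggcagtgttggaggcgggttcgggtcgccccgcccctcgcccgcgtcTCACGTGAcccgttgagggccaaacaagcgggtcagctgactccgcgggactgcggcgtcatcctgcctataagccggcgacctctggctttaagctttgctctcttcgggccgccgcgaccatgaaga

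The match of Atp6v0d1 begins 4 bases before the start site, that of Ctsd 99 bases and that of Atp6v1a 132 bases before it, and Ctsa holds 2 matches, the first 13 bases before. In Atp6v0e the match lies just inside the transcribed part. Members with the match went in no common direction in the comparison of osteoclast-gated with macrophage-gated cells that follows. Atp6v0e and Atp6v1a were at least 2-fold higher, Ctsd was at least 2-fold lower, and Atp6v0d1 and Ctsa were below macrophage-gated cells by less than 2-fold.

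In osteoclast-gated cells the sums of the pump members and of the 15 hydrolases lay on opposite sides of the macrophage level. Summed over its 15 members, the V-ATPase reached 6754 CPM (6638 to 6872), with 5997, 6716, 6882 and 7110 in libraries 1 to 4. Macrophage-gated cells had 3332 CPM, between 3279 and 3389 in the libraries. The 15 hydrolases together gave 4252 CPM (4160 to 4346) in osteoclast-gated cells, with 2990, 7917, 3895 and 3977 in the libraries, against 16074 CPM in macrophage-gated cells. The ranges of the libraries did not overlap for either sum, and the high hydrolase value is that of library 2.

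Soluble cofactors summed to 2186 CPM against 3680, and membrane proteins to 2479 against 3067. For every 100 hydrolase UMIs, osteoclast-gated cells held 159 pump UMIs and macrophage-gated cells 20.7. The hydrolase sum leaves out the gate genes Ctsk, cathepsin K, and Acp5, an acid phosphatase. These stood at 3282 and 3354 CPM in osteoclast-gated cells against 0.728 and 19.2 in macrophage-gated cells, a difference that the gate itself selects. The sum and the ratio therefore describe the 15 members and not all hydrolases of these cells. In libraries 1 to 4 the osteoclast-gated ratio was 201, 84.8, 177 and 179, and in macrophage-gated cells it ran from 20.4 to 21.1.

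**Figure D1:**
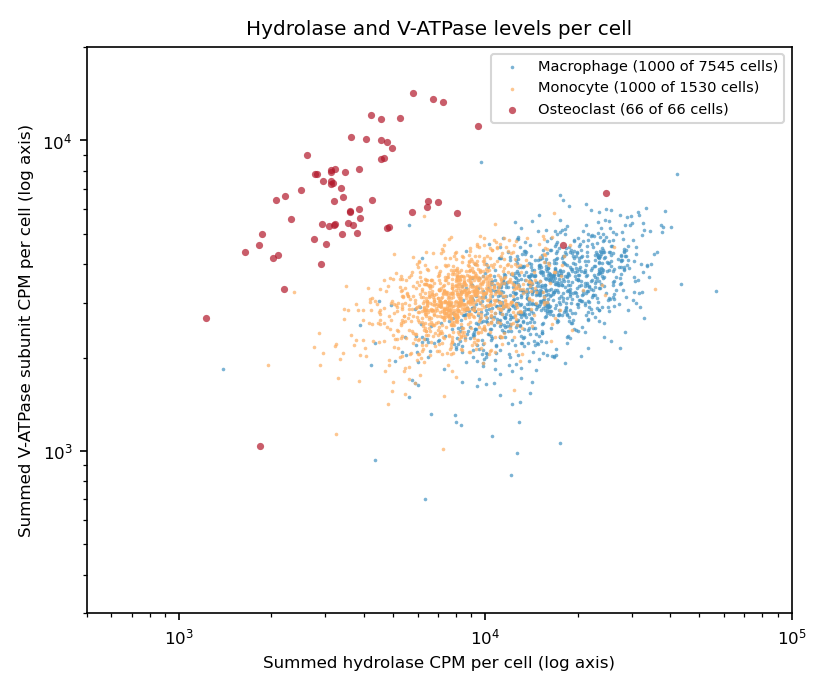
Summed CPM of the 15 hydrolases (x axis, log) and of the 15 V-ATPase subunits (y axis, log) in single cells, with all 66 osteoclast-gated cells and 1000 cells each drawn at random from the macrophage and monocyte gates. Osteoclast-gated cells lie mostly above and to the left, with medians of 3449 CPM for hydrolases and 6416 for the pump against 15630 and 3287 in macrophage-gated cells.

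The same split was seen cell by cell. The interquartile range over osteoclast-gated cells was 2899 to 4628 CPM for the hydrolase sum and 5299 to 8063 CPM for the pump sum. Over macrophage-gated cells it was 11950 to 20318 CPM and 2696 to 3924 CPM, so these ranges do not overlap for either sum.

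A member is counted below as higher or lower when log2(CPM + 10) differs at least 2-fold, with the same sign in every library holding at least 20 cells of both classes. For osteoclast-gated cells that is library 4 alone. All 21 members so counted also had the same sign in all 4 libraries. The differences were taken over these same libraries and the share of all called features is not given, so this is no separate support. Features with a mean of at least 20 CPM in the 2 classes were compared. Of 5277 such features, 7.13% were higher and 11.6% lower in osteoclast-gated than in macrophage-gated cells, and their median difference was 0.05 (log2). Of the members, 40 were compared. Higher were 6 of 40 (15%), all of them pump subunits. Lower were 15 of 40 (37.5%), of which 9 were hydrolases, 2 cofactors, 3 membrane proteins and 1 a pump subunit. The median log2 difference was 0.94 for 14 pump members (0.79 to 1.05 over the libraries), -1.68 for hydrolases (-2.10 to -0.89), -0.83 for cofactors (-1.50 to -0.39) and -0.86 for membrane proteins (-1.17 to -0.57).

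**Figure D2:**
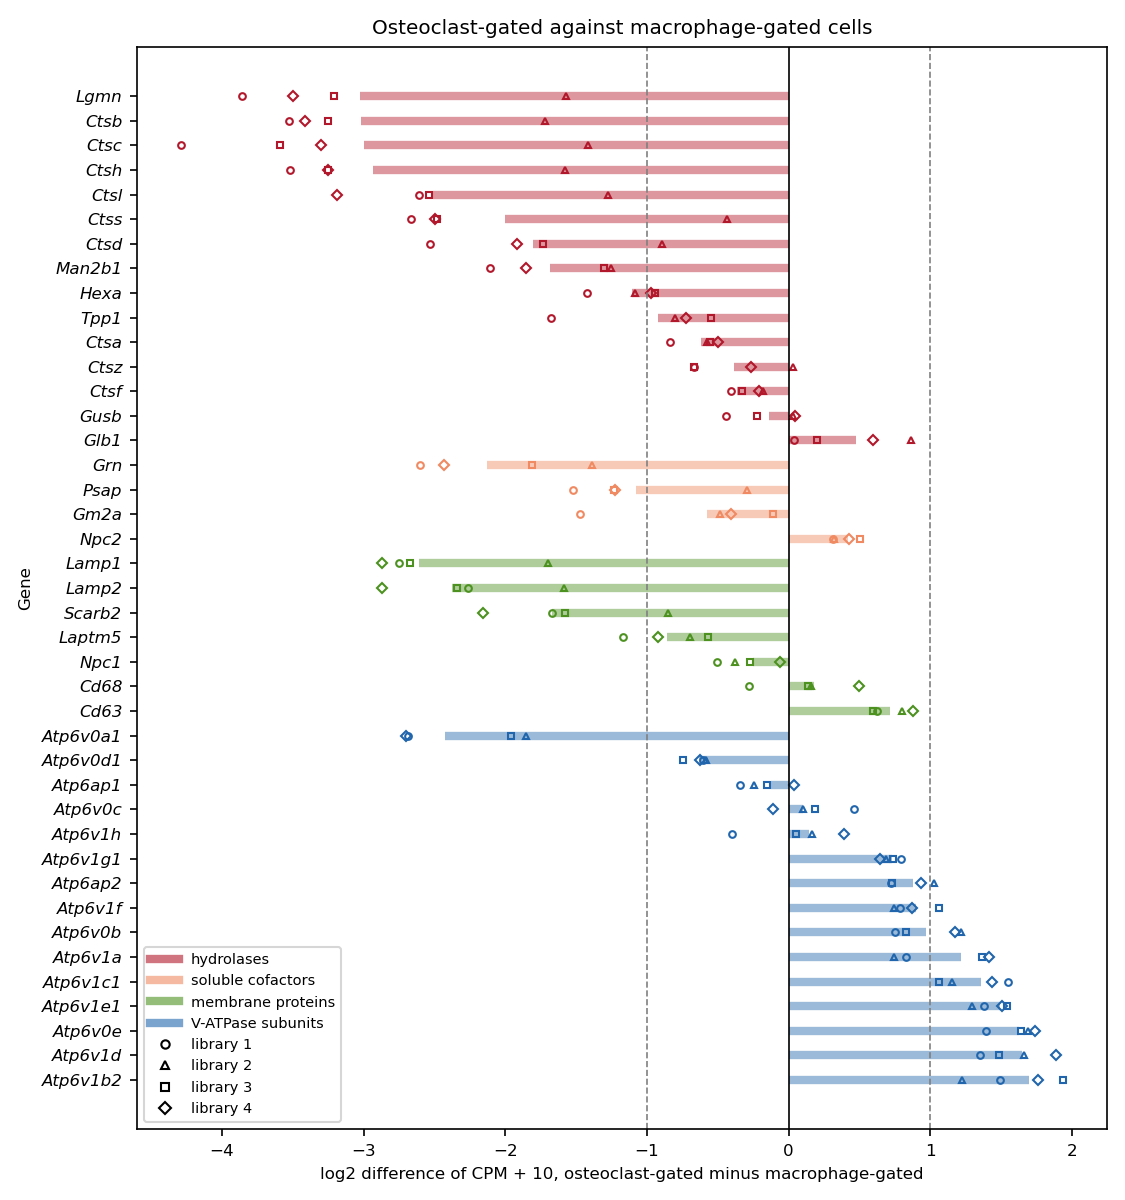
Difference of log2(CPM + 10) between osteoclast-gated and macrophage-gated cells for the 41 members (bars, all libraries together) with each library as an open marker. Dashed lines mark a 2-fold difference, and the triangles of library 2 lie nearer to 0 than those of the other libraries for most of the cathepsins.

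The hydrolases that were lower included most of the cysteine cathepsins. Ctsb, cathepsin B, stood at 392, 1461, 520 and 458 CPM in libraries 1 to 4, against 4622 to 5029 in macrophage-gated cells, or 8.21-fold lower (7.75 to 8.72) over all cells. Lgmn, the asparaginyl protease legumain that matures cathepsins, was measured at 130, 739, 228 and 176 CPM against 2016 to 2216, or 8.43-fold lower (7.71 to 9.25). Ctsc, the dipeptidyl peptidase that activates granule proteases, had 55.7, 538, 108 and 139 CPM against 1274 to 1461. In each of these 3 genes library 2 was the highest, and its value was still below every macrophage value.

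Ctsh, an aminopeptidase, gave 23.2, 124, 23.5 and 29.1 CPM against 310 to 391, the largest fold among the hydrolases at 9.32 (7.42 to 11.9). Ctsl, cathepsin L, gave 85.9, 237, 84.7 and 54.4 CPM against 540 to 588. Ctss, cathepsin S, which trims the invariant chain in antigen presenting cells, gave 158, 839, 179 and 182 CPM against 1042 to 1137. For Ctss the difference in library 2 was the smallest of the 9 genes, with a log2 difference of -0.43.

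Ctsd, the aspartic protease cathepsin D, was at 381, 1237, 640 and 582 CPM against 2154 to 2306. Man2b1, which removes mannose from glycoproteins, was at 55.7, 120, 103 and 69.6 CPM against 270 to 301. Hexa, the alpha subunit of beta-hexosaminidase, was at 320, 430, 440 and 413 CPM against 820 to 924. These 3 were separate from macrophage-gated cells in every library, with folds of 3.53, 3.48 and 2.18.

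The remaining 6 hydrolases differed by less than 2-fold. Glb1, beta-galactosidase, was the one hydrolase above the macrophage level in all 4 libraries, at 58.0, 112, 75.3 and 101 CPM against 56.2 to 64.2. Gusb, beta-glucuronidase, lay on both sides, at 237, 349, 278 and 320 CPM against 309 to 342. Ctsf was below the macrophage level in all 4 libraries by less than 2-fold, at 41.8, 52.2, 44.7 and 31.6 CPM against 38.0 to 60.4. The ranges of the libraries overlapped for all 3 genes. Ctsz, a carboxypeptidase, stood at 847 CPM against 1107, Ctsa, which protects other lysosomal enzymes, at 358 against 553, and Tpp1, a tripeptidyl peptidase, at 110 against 217.

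Among soluble cofactors, Grn, which encodes progranulin, stood at 202, 510, 360 and 237 CPM against 1279 to 1350, 4.48-fold lower (4.12 to 4.88). Psap, the precursor of the saposins that present lipids to hydrolases, gave 416, 1068, 619 and 618 CPM against 1210 to 1470, 2.13-fold lower (2.01 to 2.25), but less than 2-fold lower with gates set on cells thinned to 5000 UMIs (log2 difference -0.91). Gm2a, the GM2 activator, gave 55.7, 124, 143 and 110 CPM against 149 to 178. Of the 4 cofactors, Npc2, which binds cholesterol inside the lysosome for its export, was the one above, at 1049, 1080, 1199 and 1213 CPM against 842 to 899. Its libraries did not overlap with those of macrophage-gated cells, although the difference was 1.34-fold.

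Of the membrane proteins, the main coat glycoproteins were lower. Lamp1 was at 107, 177, 132 and 67.1 CPM against 553 to 893, and Lamp2 at 37.1, 72.3, 35.3 and 22.8 CPM against 217 to 236. Scarb2, the receptor that carries glucocerebrosidase to lysosomes, was at 11.6, 28.1, 14.1 and 6.33 CPM against 58.7 to 62.9, its lowest level in any of 15 classes. All 3 were separate from macrophage-gated cells in every library.

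The tetraspanin Cd63 lay on the other side, at 1263, 1453, 1124 and 1347 CPM against 727 to 830, 1.65-fold higher (1.58 to 1.72). Cd68, a macrophage sialomucin, stood at 460, 646, 536 and 728 CPM against 487 to 577, and its libraries overlapped. Npc1, the membrane partner of Npc2, stood at 17.9 CPM against 23.3, with 13.9 to 21.5 in the libraries, and Laptm5 at 404 against 741. The annotation holds a transcribed processed pseudogene of Cd63 that is no feature of the matrix, so the level of Cd63 may include reads shared with that copy.

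Within the pump, V1 held 5 of the 6 members that were higher, of 8 measured. Atp6v1b2, the B subunit at the interface where ATP binds, stood at 483, 446, 703 and 643 CPM in libraries 1 to 4, against 165 to 185 in macrophage-gated cells, 3.36-fold higher (3.16 to 3.57). Atp6v1a, the catalytic A subunit, was at 176, 165, 256 and 276 CPM against 93.3 to 97.4, 2.46-fold higher (2.23 to 2.71). Atp6v1d, part of the central rotor, was at 306, 385, 334 and 428 CPM against 108 to 115. In all of them the lowest osteoclast-gated library was above the highest macrophage-gated one.

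Atp6v1e1, of the peripheral stalk, had 467, 470, 583 and 582 CPM against 173 to 199. Atp6v1c1, which links the stalk to the membrane sector, had 262, 205, 198 and 251 CPM against 83.2 to 89.4. The other V1 members were Atp6v1f at 693 CPM against 368, Atp6v1g1 at 960 against 575 and Atp6v1h, a regulator of V1 activity, at 61.2 against 54.3. Atp6v1h lay below macrophage-gated cells in library 1, with a log2 difference of -0.40, and above them in the others.

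In V0, Atp6v0e was at 1056, 1289, 1256 and 1273 CPM against 375 to 397, 3.13-fold higher over all cells. Atp6v0b, a proteolipid of the rotating ring, was at 1117 CPM against 564, 1.98-fold higher (1.90 to 2.07) and just short of 2-fold on the scale used. Of the 2 accessory proteins, Atp6ap2 stood at 370 CPM against 196, and Atp6ap1 at 151, 177, 191 and 205 CPM against 194 to 213. Atp6v0c, the main ring proteolipid, gave 14 UMIs in all osteoclast-gated cells, 7.39 CPM against 6.20, and was not compared. The annotation holds 2 processed pseudogenes of Atp6v0c that are no features of the matrix, and its low level is uncertain for that reason.

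The 2 remaining V0 members lay below the macrophage level in all 4 libraries, Atp6v0d1 by less than 2-fold, and for each an isoform outside the 41 was higher. Atp6v0a1, the a1 form of the subunit that forms the proton path, was at 4.64, 16.1, 9.41 and 2.53 CPM against 65.5 to 84.3, 12.3-fold lower (7.04 to 23.8), on 12 UMIs. Tcirg1, the a3 form that is mutated in osteopetrosis, was at 176, 265, 202 and 229 CPM against 48.5 over all macrophage-gated cells, 4.45-fold higher (4.01 to 4.92). Of the UMIs of Tcirg1, Atp6v0a1 and Atp6v0a2 together, Tcirg1 took 88.3% (exact binomial 95% interval 85.1 to 91.1) in osteoclast-gated and 33.4% in macrophage-gated cells. Its share was 89.4%, 89.2%, 85.1% and 89.2% in libraries 1 to 4 of osteoclast-gated cells.

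Atp6v0d1, the common form of the d subunit that couples the ring to the rotor, was at 151, 157, 146 and 154 CPM against 235 to 251. Atp6v0d2, the d2 form known from osteoclasts, was at 566, 502, 616 and 671 CPM against 2.70. It made up 80.1% (78.0 to 82.2) of the d subunit UMIs in osteoclast-gated cells, between 76.2% and 81.3% in the libraries, and 1.11% in macrophage-gated cells. Summed over both forms, the d subunit stood at 765 CPM against 244. The a subunit, summed over the 3 forms, stood at 244 CPM against 145.

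**Figure D3:**
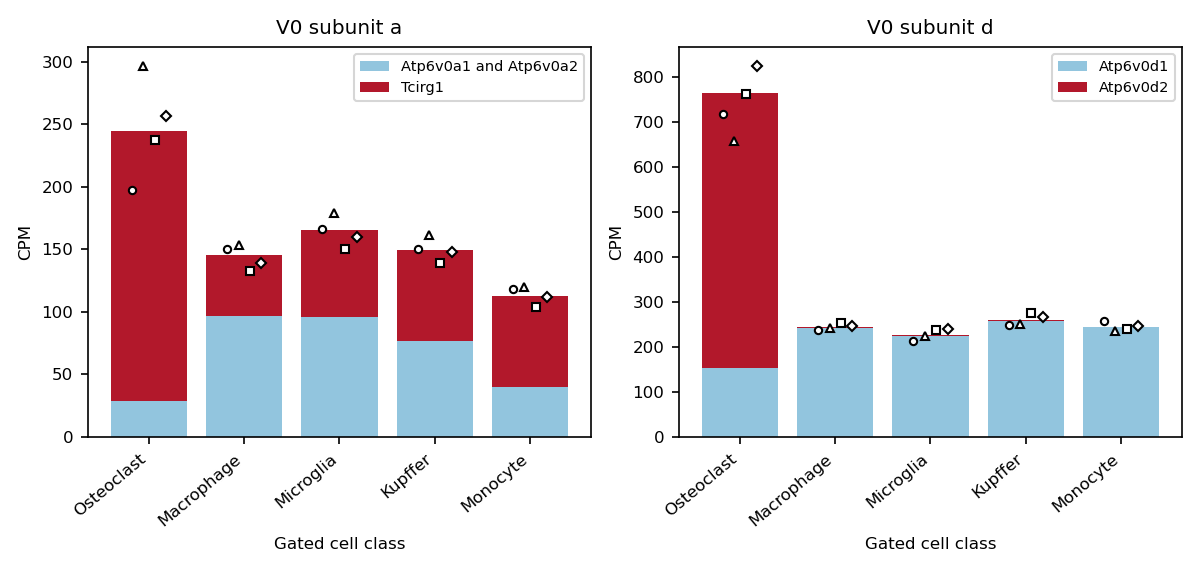
Level in CPM of the V0 subunits a (left) and d (right) in 5 gated classes, stacked by isoform, with the subunit total of each library as open markers (circle, triangle, square and diamond for libraries 1 to 4). Atp6v0d2 fills 80.1% of the bar in osteoclast-gated cells and 1.11% or less of it in the other classes, whereas Tcirg1 fills 33.4% to 65.1% of the bar in the other classes.

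Across the other macrophage-family classes Tcirg1 already held a sizeable share, 42.0% in microglia-gated and 48.9% in Kupffer-gated cells, and it reached 65.1% in Ly6c2 monocyte-gated and 67.7% in neutrophil-gated cells. In erythroid-gated cells it was 15.2%. Atp6v0d2 had no such gradation, with 0.970% of d subunit UMIs in microglia-gated, 0.668% in Kupffer-gated and 0.103% in monocyte-gated cells.

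The cells just inside and outside the osteoclast gate were also described, by the lower of their Ctsk and Acp5 UMI counts, with no test. With 0 UMIs, 21856 cells of the macrophage family or of no family had 3084 CPM of pump and 14687 of hydrolase UMIs. With 1 to 2 UMIs, 89 cells had 3111 and 12421 CPM, close to these. With 3 to 9 UMIs, 7 cells had 4749 and 5116 CPM, with hydrolase sums from 2383 to 9163 CPM over the 3 libraries that hold them, at 2 to 3 cells each. With 10 or more, 50 cells had 7422 and 3904 CPM. C1q genes, which mark macrophages, stood at 7769, 5521, 490 and 354 CPM in the same order, and Atp6v0d2 at 2.25, 40.7, 333 and 688 CPM. The bins move with the depth of the cells, and leave out the 9 osteoclast-gated cells of other families.

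The values of the 3 C1q genes also give a measure of macrophage RNA in other classes. In osteoclast-gated cells their sum was 5.62% of that in macrophage-gated cells. At 5.62% of the macrophage level Ctsb would reach 272 CPM and Lgmn 119 CPM, against the measured 589 and 251. Measured levels were more than 2 times this amount for 14 of 15 hydrolases, with Ctsh at 1.91 times, and for 14 of 15 pump members, with Atp6v0a1 at 1.45 times. In libraries 1 to 4 the C1q sum was 276, 1935, 790 and 122 CPM, or 2.80%, 19.2%, 8.34% and 1.31% of that in the macrophage-gated cells of the same library. Within library 2 the number of hydrolases above 2 times the amount was 11, without Ctsb, Ctsc, Ctsh and Lgmn, and within library 3 it was 10, without these and Ctsl. It was 14 in library 1, 15 in library 4, 15 over the cells outside library 2 (C1q at 3.497%) and 11 over those outside library 4 (8.61%). For the pump it was 14 or 15 in each of these. Without library 2 the median log2 difference was -1.74 for hydrolases and 0.93 for the pump. Without the 15 cells that pass another macrophage-family gate it was -1.87 and 0.97, and without the 9 cells that pass a gate of another family the hydrolase median was -1.71, with 7 members higher.

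**Figure D4:**
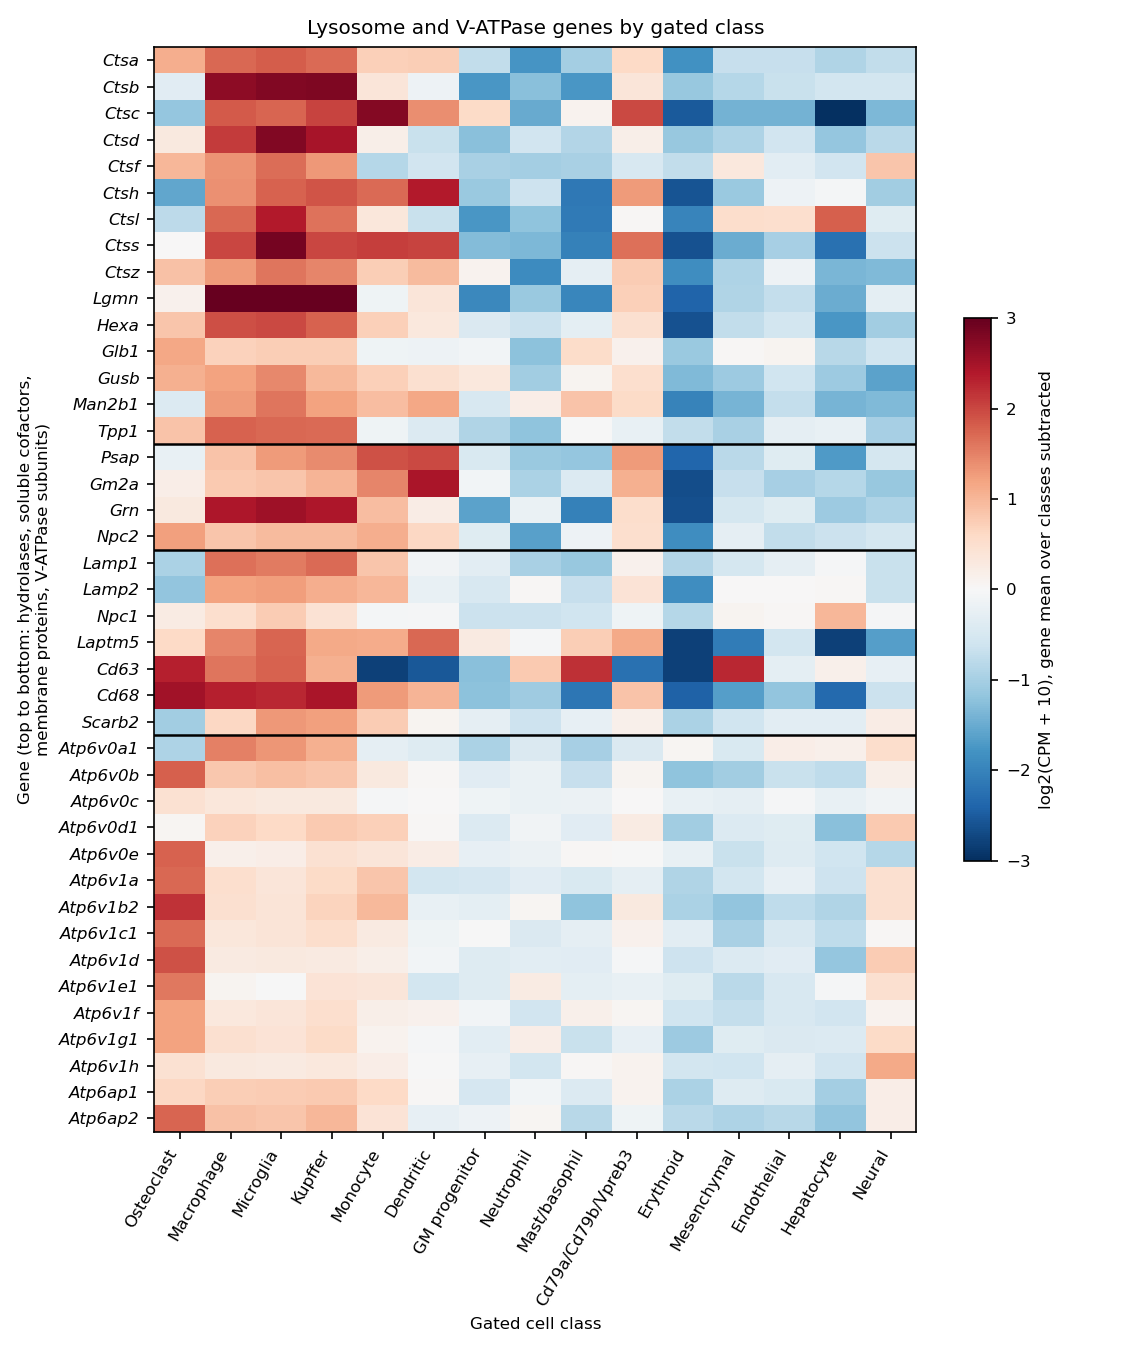
Level of each of the 41 members as log2(CPM + 10), with the mean over 15 gated classes subtracted and colours ending at 3 on either side, for hydrolases, soluble cofactors, membrane proteins and V-ATPase subunits from top to bottom. Hydrolases are high in the macrophage, microglia and Kupffer columns, 10 of 15 with their highest level in microglia-gated cells, and 11 of 15 pump subunits have theirs in osteoclast-gated cells. The share of all features that peak in each class is not given.

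Over the 15 classes, osteoclast-gated cells had the highest level of 11 of 15 pump members, of 1 of 15 hydrolases (Glb1), and of Npc2, Cd63 and Cd68. The share of all features that peak in this class is not given, so these counts describe the members without a background. For Cd63 the next class was mesenchymal-gated cells, at 1240 against 1292 CPM. For Atp6v0c, which is among the 11, it was macrophage-gated cells, at 6.20 against 7.39 CPM (4.04 to 12.4). That rests on 14 UMIs, and the 2 classes are not separate. The other 4 pump members peaked elsewhere, Atp6v0a1 in macrophage-gated cells, Atp6v0d1 and Atp6ap1 in Kupffer-gated cells at 257 and 210 CPM, and Atp6v1h in neural-gated cells at 105 CPM. The classes differed less in the pump than in the hydrolases. The highest class exceeded the lowest by a median of 7.89 times for pump members and of 24.6 times for hydrolases. The median was 12.9 times for membrane proteins and 35.1 times for cofactors.

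**Figure D5:**
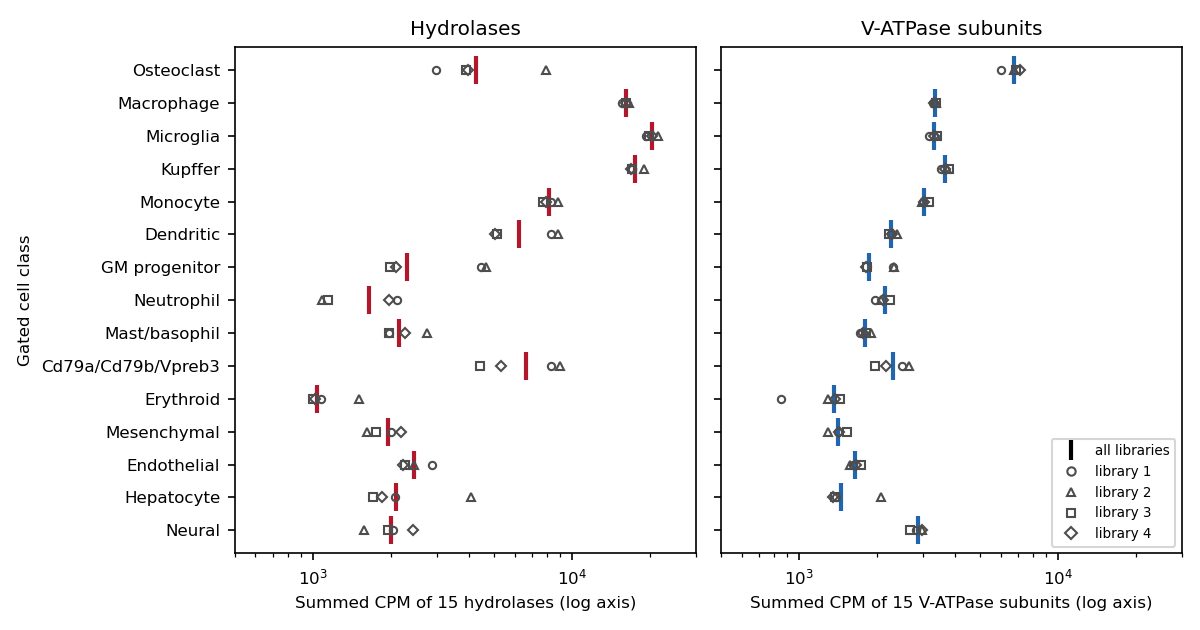
Summed CPM (log axis) of the 15 hydrolases (left) and of the 15 V-ATPase subunits (right) in 15 gated classes, with all libraries together as a bar mark and each library as an open marker. The osteoclast-gated pump sums, 5997 to 7110, lie above those of the other classes, while its hydrolase sums lie below those of the macrophage, microglia and Kupffer gates.

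In order of the summed pump, Kupffer-gated cells came next at 3655 CPM (3521 to 3795 over libraries), then macrophage-gated cells at 3332 and microglia-gated cells at 3306 (3162 to 3410), which overlap. Monocyte-gated cells had 3044 CPM (2979 to 3177) and neural-gated cells 2874 (2688 to 2988), and these overlap too. The lowest sum was that of erythroid-gated cells, at 1359 CPM. For hydrolases the order was different, with microglia-gated cells first at 20273 CPM, then Kupffer-gated cells at 17428 and macrophage-gated cells at 16074. Monocyte-gated cells had 8145 CPM and dendritic-gated cells 6216, and erythroid-gated cells again had the least, at 1038 CPM. Cells gated on Cd79a, Cd79b and Vpreb3 had 6625 CPM, but this gate also held macrophage RNA and is named by its genes.

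A high ratio of pump to hydrolase was not particular to osteoclast-gated cells. Neural-gated cells held 144 pump UMIs for every 100 hydrolase UMIs (123 to 190 over libraries), and neutrophil-gated and erythroid-gated cells 131 each. In these classes the ratio stood on low hydrolase sums, 1996 CPM in neural-gated and 1641 CPM in neutrophil-gated cells. In neural-gated cells C1q was at 7.98% of the macrophage level, and 5 of 15 hydrolases exceeded 2 times the amount that share of macrophage RNA would give, whereas 15 of 15 pump members did. In erythroid-gated cells C1q was at 1.36%, and 14 of 15 hydrolases and 15 of 15 pump members exceeded it by that factor.

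Microglia-gated and Kupffer-gated cells were each set beside macrophage-gated cells. No member differed 2-fold between microglia-gated and macrophage-gated cells, where 0.495% of 5254 features were higher and 0% lower. The hydrolase median was 0.32 (0.23 to 0.33 over libraries) and the pump median -0.03. Ctss was 1986 against 1078 CPM and Ctsd 3638 against 2243 CPM. Between Kupffer-gated and macrophage-gated cells no member differed 2-fold either, where 1.32% of 5223 features were higher and 0.172% lower, and the medians were -0.01 for hydrolases and 0.10 for the pump. With microglia-gated cells that also passed the macrophage gate left out, the hydrolase median was 0.58.

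Monocytes are circulating cells that can become macrophages. Of 5 genes used to check the monocyte label, 4 were at least 2-fold higher in monocyte-gated cells than in the other kept cells. Monocyte-gated cells had a summed hydrolase level of 8145 against 16074 CPM in macrophage-gated cells, and a summed pump level of 3044 against 3332 CPM. Of 39 members compared, 1 was higher and 11 lower than in macrophage-gated cells, where 5.65% of 5189 features were higher and 6.84% lower. The lower members were Ctsb, Ctsd, Ctsf, Ctsl, Lgmn, Hexa, Tpp1, Grn, Cd63, Cd68 and Atp6v0a1. Cd63 had 27.6 CPM against 784, and Lgmn 210 against 2118. The higher one was Psap, at 2808 against 1343 CPM, and Ctsc, at 2631 against 1393 CPM, came close to 2-fold. The hydrolase median was -0.99 (-1.05 to -0.92 over libraries) and the pump median -0.09, which turned to 0.14 with TMM scaling and 0.050 with size factors. TMM moved the median of all features from -0.01 to 0.21. With class totals 45.2% of the features called were higher, with TMM 60.8%. With TMM the members stood at 2 higher and 9 lower, Hexa moving from -1.23 to -0.97, Cd68 from -1.07 to -0.81 and Ctsc from 0.91 to 1.17 in log2 difference. With size factors they stood at 2 higher and 10 lower, with Cd68 at -0.91 and Ctsc at 1.08.

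The osteoclast-gated and monocyte-gated comparisons use the same macrophage-gated cells, so levels are given side by side. Ctss had 262 CPM in osteoclast-gated, 1140 in monocyte-gated and 1078 in macrophage-gated cells, and Ctsc 166, 2631 and 1393 CPM. Cd63 had 1292, 27.6 and 784 CPM, and Atp6v1b2 594, 254 and 177 CPM.

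In dividing macrophages most members took a lower share of the UMIs. Macrophage-gated cells with at least 3 UMIs of Mki67 and Top2a, 2000 in number, were set beside 3765 with 0. The 2000 cells held 36669914 UMIs in all and the 3765 cells 41797430, so the dividing cells were deeper. Levels in CPM are shares, and amounts per cell were not compared. The median log2 difference was -0.47 for hydrolases (-0.54 to -0.37 over libraries), -0.36 for cofactors and for membrane proteins, and -0.15 for the pump, against 0.02 for all 5236 features compared. All 15 hydrolases and 11 of 14 pump members were lower in every library, beside 1714 of the 5236 features. No member reached 2-fold, and 168 of the features did in either direction. The hydrolase sum was 13282 CPM in dividing and 18234 CPM in other cells, and the pump sum 3109 and 3519 CPM. C1q was lower as well, at 8057 against 11036 CPM.

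A list of 55 other lysosome genes was set beside the members, of which 40 were compared between osteoclast-gated and macrophage-gated cells. Of these, 7 were higher and 9 lower, beside 7.13% and 11.6% of all features, with a median log2 difference of -0.28. A gene below 20 CPM in either class was compared only if its level in the other was high enough to lift the mean. These counts therefore depend in part on the filter. Of 20 other hydrolases 1 was higher, Arsb, which removes sulfate from glycosaminoglycans, at 86.5 against 26.0 CPM. Lower were Lipa, the acid lipase, at 19.0 against 125 CPM, Galc at 10.0 against 35.8 and the acid ceramidase Asah1 at 140 against 319 CPM. Also lower were Acp2 at 19.5 against 61.5, Ppt1 at 33.8 against 133 and Pla2g15 at 11.6 against 67.9 CPM. Of 7 other membrane proteins, Laptm4a at 152 against 375 CPM and Cd164 at 31.1 against 155 CPM were lower and none was higher.

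Of 3 cathepsin inhibitors 1 was higher and 1 lower, and of 4 sorting genes compared 2 were higher and none lower. The higher ones, Cst7, Igf2r and Gnptab, passed the filter on the mean only through their level in osteoclast-gated cells. Their being counted as higher was therefore largely set by the filter. Cst3, the secreted cystatin C, stood at 1173 against 2553 CPM, Cst7, an inhibitor found inside the endolysosome, at 62.3 against 1.38 CPM, and Cstb, which acts in the cytosol, at 1250 against 629 CPM, just short of 2-fold on the scale used. Igf2r, the large receptor for mannose 6-phosphate, was at 41.7 against 1.01 CPM, and Gnptab, part of the enzyme that adds this tag to hydrolases, at 42.7 against 6.37 CPM. M6pr, the small receptor, was at 356 against 185 CPM. Both Igf2r and Gnptab were higher in every library, with 32.1 to 46.4 CPM of Igf2r in osteoclast-gated cells.

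Of the factors of the family, Mitf, which osteoclasts need, was higher, at 78.9, 104, 77.6 and 78.5 CPM in libraries 1 to 4 against 19.0 in macrophage-gated cells. Tfe3 stood at 20.6 against 48.3 CPM and Tfec at 36.9 against 46.0 CPM, both by less than 2-fold on the scale used. Tfeb, at 16.4 against 17.6 CPM, was below the level compared.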

How the data were processed

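The authors deposited 1 matrix of raw UMI counts, with genes in rows and barcodes in columns, made with Cell Ranger from 10x 3′ libraries. The version is 3.0.1 per the file headers and 2.1.1, with mm10, per the submitters' processing notes. The 4 barcode numbers match no sample label, so the matrix was treated as 1 pooled sample and the planned tests over samples were replaced by counts, ranges and exact intervals. Library depth ran from 106500620 to 198754246 UMIs.

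Cells were kept with at least 1000 UMIs, at least 500 genes and at most 10% of UMIs from mitochondrial genes. Classes came from gates on raw UMIs, 4288 cells that passed gates of several families were left out (except osteoclast-gated ones), and 8664 passed none. No doublet caller was run. UMIs were summed per class and library, giving CPM with exact Poisson 95% intervals. Ratios carry exact conditional intervals. Differences are on the log2(CPM + 10) scale, and for low genes this scale gives too small a difference. Members that were higher or lower, and the 3 highest and 3 lowest of each group, are given per library, and listed pathway genes are named when higher or lower. Alternatives covered the pseudocount, the filter on low values, scaling (TMM in edgeR 4.0.16, size factors), gates, cell filters, thinning to 5000 UMIs and leaving out each library. The scripts were tested on simulated data. Members and lists were chosen with earlier results of these data known. The 4 added alternatives (sign in all 4 libraries, and 3 that leave out cells passing other gates) were chosen after seeing the data. A protein comparison of the V-ATPase isoforms was not analysed here. Promoters came from RefSeq on GRCm38.p6.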

Additional observations from a re-analysis of the deposited data

Results flagged for a closer look

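Of 20 groups of library values examined for one library far from the others, 2 stood out, and chance alone gives about 1 in 20. In Kupffer-gated cells the summed hydrolases were 18977 CPM in library 2, with the nearest library at 17093 CPM. In the same class the summed membrane proteins were 2397 CPM in library 4, with the nearest library at 2840 CPM. The cause was not tested in either case.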

How the results depend on the processing

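No paired analysis was possible because the barcodes carry no replicate number of the labels and no test was run; differences within each library are given instead. For osteoclast-gated against macrophage-gated cells the group medians kept their sign under every alternative run, with 6 to 7 members higher and 13 to 16 lower. TMM scaling moved the membrane protein median to -1.35 and the pump median to 0.82. It changed the share of higher calls among all features from 38.1% to 30.5%. Npc1, at 17.9 against 23.3 CPM with class totals, falls under the mean of 20 CPM with TMM. The membrane protein median then rests on fewer members. For microglia-gated cells the hydrolase median was 0.46 as a mean over cells, 0.60 with doubled gate thresholds, 0.21 with cells of several families kept in the gates, 0.65 with gates on thinned cells and 0.58 without cells that pass the macrophage gate. The pump median there was 0.0059 as a mean over cells, -0.062 with the wider gates and -0.063 without those cells. For monocyte-gated cells the hydrolase median was -0.74 with TMM, -0.83 with size factors, -1.09 with doubled thresholds, -1.28 with the wider gates and -1.14 with gates on thinned cells. The pump median there was 0.14 with TMM, 0.050 with size factors and -0.20 with the wider gates. Apart from that of the membrane protein median, the cause of these moves was not tested. Leaving out each library in turn kept the osteoclast hydrolase median between -1.80 and -1.56 and the pump median between 0.89 and 0.99. The 66 osteoclast-gated cells, 9 in library 2, set the limit on precision.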
